A study of Mus musculus with 8 samples.

Results

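Cytosolic and mitochondrial heat shock proteins fold newly made and damaged proteins, and 10 genes of this group were described: Hsp90aa1, Hsp90ab1, Hspa8, Hspa4, Hsph1, Stip1, Hspa9, Hspd1, Hspe1 and the transcription factor gene Hsf1. They were chosen by symbol, not by their values, and all 10 were found among the 25574 genes of the deposited table. The data comprised 4 non-polysomal (NP) and 4 polysomal (P) RNA-seq libraries of NEBD-stage mouse oocytes, that is, oocytes whose nuclear envelope had broken down at meiotic resumption. In SSP-profiling, a polysome fractionation for scarce samples, a lysate of 200 oocytes was spun through a 10–50% sucrose gradient and collected as 10 fractions. The topmost fraction was left out, so the lightest particles are in neither dataset, and the others were pooled into the lighter NP part and the heavier P part. The comparison of P with NP asks whether a stored maternal mRNA was relatively more or less abundant in the P pool than in the NP pool. Values are scaled within each library, so they do not give the part of an mRNA carried by polysomes. The study could not exclude that heavy stored particles sedimented together with polysomes.

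Both datasets shared the same source and treatment. CD1 mice of 8 weeks were injected with 5 IU of pregnant mare serum gonadotropin 46 h before collection, germinal vesicle oocytes were isolated in 100 µM IBMX, which holds meiosis, and were then denuded and cultured without IBMX for 180 min. Oocytes whose nuclear envelope had broken down were selected part of the way through this culture. All oocytes received 0.1 mg/ml cycloheximide, which stalls ribosomes on mRNA, for 10 min before lysis. Each library is a bulk pool of oocytes, so that fewer oocytes with a transcript and less transcript per oocyte cannot be told apart. All 13 oocyte markers examined were above 0, their summed FPKM (fragment number scaled for gene length and library depth) being 6756 to 13440 in NP and 8801 to 32776 in P. Of 15 cumulus and granulosa cell markers, 9 were above 0 in some library and 6 (Inhbb, Ptx3, Foxl2, Inhba, Fst and Has2) were at 0 in all, with summed FPKM of 15.3 to 138 in NP and 19.98 to 64.0 in P, and the 3 blood cell markers present in the table were at 0. The part of these follicle cell transcripts in the results below was not tested. The number of reads to which each library had been scaled, recovered from the steps between FPKM values, was 1299377 to 7594637 in NP and 2677946 to 4699328 in P, and 11703 to 13753 genes were above 0 in NP against 9139 to 11339 in P.

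As background, Hsp90 and Hsp70 proteins hold client proteins in cycles of ATP binding and hydrolysis. Hsp70 binds unfolded stretches first, Hsp110 proteins exchange its nucleotide, and the adaptor Stip1 passes clients from Hsp70 on to Hsp90. In mitochondria the Hsp70 protein Hspa9 pulls imported chains inward and the chaperonin Hspd1 folds them under a lid of Hspe1. Hsf1 is the transcription factor that induces many of these genes under stress, and it is also known as a maternal factor of the mouse oocyte. Fully grown oocytes are transcriptionally silent, so the mRNAs measured here had been made earlier in growth.

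All 10 genes had reads in all 8 libraries, and they covered a wide range of levels. On the FPKM scale, which is per length and allows genes to be compared, the means over the 8 libraries were 179.6 for Hspa8, 122 for Stip1, 65.1 for Hsp90ab1, 51.7 for Hspa9, 48.4 for Hsp90aa1, 43.4 for Hsf1, 14.5 for Hspa4, 12.0 for Hsph1, 2.73 for Hspd1 and 2.09 for Hspe1. The range of each gene over the 8 libraries overlapped that of its neighbour in this order. The lowest value of Hspa8, 110.7 FPKM, lay above the highest values of all other genes but Stip1 and Hsp90ab1. Mean FPKM in P exceeded 50 for 4 of the 10 genes (Hspa8, Stip1, Hsp90aa1 and Hspa9), where the share over the 14292 genes tested was 12.9%. The 10 genes together held 514 to 700 FPKM in NP and 388 to 695 FPKM in P.

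**Figure D1:**
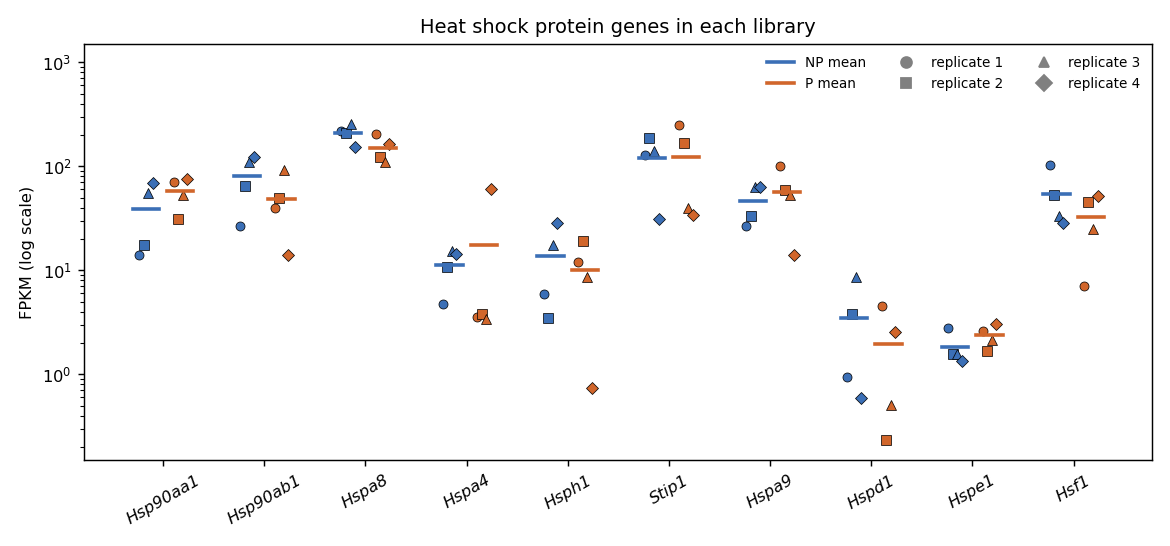
FPKM of the 10 heat shock protein genes in each library on a log axis, with NP in blue, P in orange, a marker shape for each replicate number and a bar at the mean of 4 libraries. Hspa8 lies above 110 FPKM in every library, Hspd1 and Hspe1 lie below 10 FPKM, and the NP and P points overlap for each gene.

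None of the 10 genes differed between the datasets beyond the spread of the replicates. In limma's test on log2(FPKM + 1) with Benjamini-Hochberg adjustment over all 14292 genes, 0 of 10 passed an adjusted p of 0.1 and 0 of 10 had an unadjusted p under 0.05. The background was also sparse after adjustment, with 0.0210% of all genes called (3 genes, all higher in NP), while 9.95% had an unadjusted p under 0.05. In limma-voom on reads recovered from the FPKM steps the count for the 10 genes was also 0 at both limits. The 4 NP and the 4 P libraries overlapped for each of the 10 genes, where 6.28% of all genes showed no overlap. No gene had means more than 2-fold apart with all libraries, which 57.5% of all genes had. When single libraries were left out, 5 of the 10 passed 2-fold. The share of all genes that does so was not computed, so this count has no background. The ratio of means, P over NP, was then 2.01 for Hsp90aa1 without NP replicate 4, 0.427 for Hsp90ab1 without P replicate 3, 0.317 for Hspa4 and 0.469 for Hsf1 without P replicate 4, and 0.313 for Hspd1 without P replicate 1.

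The direction of the smaller differences depended on how the libraries were scaled. In the deposited values the log2 fold change, P over NP, was positive for 3 genes (Hsp90aa1, Hspa9 and Hspe1) and negative for 7, with a median of −0.43 beside −0.39 over all genes tested. The median over all genes was −0.02 after quantile normalization, where 6 of the 10 genes were positive, and 0.57 after median centring, which subtracts from each library the median of its log2 values, where all 10 were positive. Only Hsp90aa1 and Hspe1 lay more than 0.5 above the median of all genes in the deposited values. With centring, Hsp90aa1 reached an unadjusted p of 0.028 (log2 fold change 1.75, SE 0.72, adjusted p = 0.193 by limma), the lowest of the group in any setting tried. With the same centring 19.0% of all genes were higher in P at an unadjusted limma p under 0.05.

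**Figure D2:**
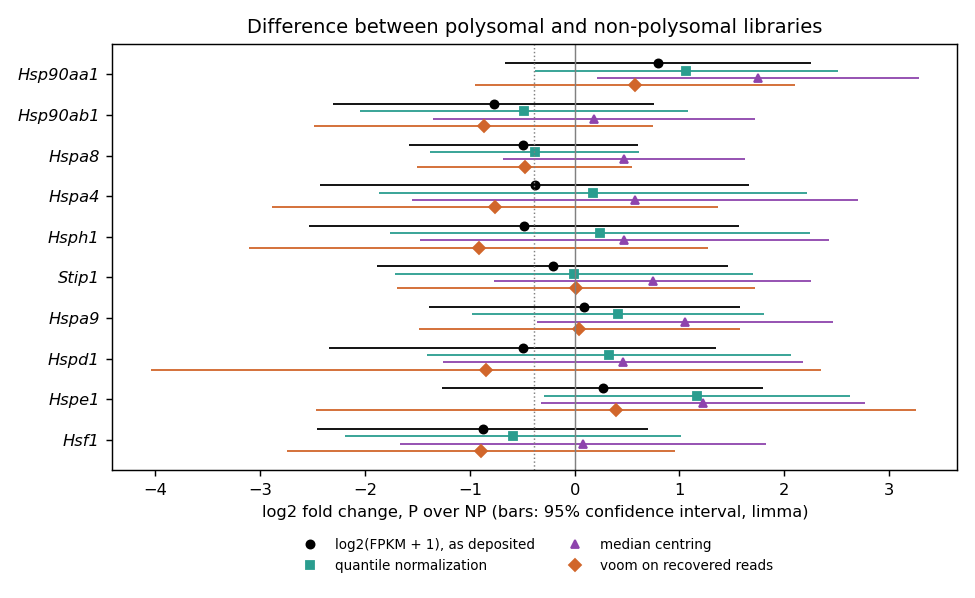
Log2 fold change of P over NP for the 10 genes by 4 methods (deposited FPKM, quantile normalization, median centring, voom on recovered reads), with 95% confidence intervals from limma. The dotted line marks the median of all genes tested as deposited, −0.39. The intervals include 0 except that of Hsp90aa1 after median centring.

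Of the cytosolic Hsp90 genes, Hsp90aa1 encodes the stress-inducible and Hsp90ab1 the constitutive form. Hsp90aa1, on chromosome 12 (chr12:110690605-110702728 in GRCm38), had 13.9, 17.4, 54.8 and 69.3 FPKM in NP replicates 1 to 4 and 71.3, 31.4, 52.6 and 76.2 FPKM in P replicates 1 to 4. The NP libraries fell into a low and a high pair, and the P values lay near the high pair apart from replicate 2. Means were 38.9 ± 27.4 FPKM in NP and 57.9 ± 20.4 FPKM in P (SD, n = 4), with a log2 fold change of 0.79 (SE 0.68, limma adjusted p = 0.666). Hsp90ab1 (chr17:45567775-45573271) had 26.8, 64.2, 110.1 and 123 FPKM in NP and 39.7, 50.1, 92.1 and 14.2 FPKM in P. Its lowest value was that of P replicate 4 and its highest that of NP replicate 4. Means were 81.1 ± 44.2 FPKM in NP and 49.0 ± 32.4 FPKM in P, with a log2 fold change of −0.77 (SE 0.71, limma adjusted p = 0.681) that became 0.19 after median centring.

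The balance between both Hsp90 genes, a ratio within each library, separated the datasets. A common factor on a library leaves the FPKM ratio unchanged, though not fully the ratio of FPKM + 1 that was tested. Hsp90aa1 FPKM divided by Hsp90ab1 FPKM was 0.519, 0.272, 0.498 and 0.561 in the NP libraries and 1.80, 0.627, 0.571 and 5.37 in the P libraries. The constitutive gene was thus the higher one in all 4 NP libraries and in 2 P libraries, and the inducible gene in P replicates 1 and 4. Every P ratio lay above every NP ratio, although NP replicate 4 and P replicate 3 were nearly equal. On log2((FPKM + 1)/(FPKM + 1)) the means were −1.13 ± 0.46 in NP and 0.43 ± 1.47 in P, a difference of 1.56 (exact permutation test over 70 assignments, 2-sided, p = 0.0286, the smallest it can give, and 0.114 after Benjamini-Hochberg adjustment over 4 ratios, so that the difference did not hold after correction). The test took the libraries as unpaired, although both pools came from the same 4 gradients, whose numbers no source ties between NP and P. Without P replicate 4 the difference was 0.93 (exact permutation p = 0.0286). Leaving out NP replicate 1, 3 or 4 gave an exact permutation p of 0.143 and leaving out NP replicate 2 gave 0.171, with differences of 1.33 to 1.67. The reads behind the ratio were 89 to 2068 for Hsp90aa1 and 114 to 2812 for Hsp90ab1.

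Near-identical copies of Hsp90aa1 occur elsewhere in the genome. Stretches of at least 100 bases with at least 95% identity were found at 5 other loci of GRCm38 and covered 84.5% of the Hsp90aa1 transcript, whereas for Hsp90ab1 there was 1 such locus covering 6.83%. None of the copies of one gene was the other gene. No row of the table is named for a pseudogene of the 10 genes, the counting of reads with several matches is not given in the sources at hand, and the part of these copies in the ratio was not tested.

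**Figure D3:**
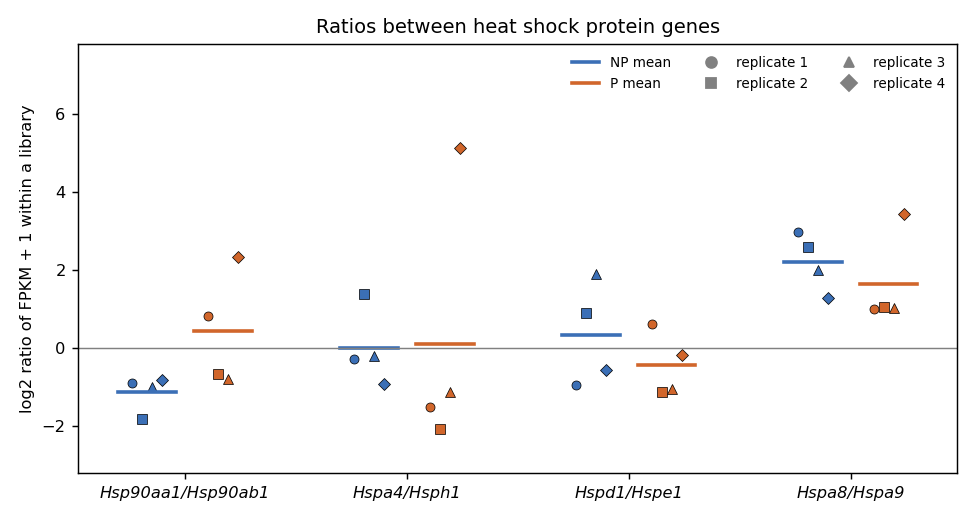
Log2 ratios of FPKM + 1 between pairs of heat shock protein genes within each library, NP in blue and P in orange, with bars at the means of 4 libraries. For Hsp90aa1/Hsp90ab1 the 4 P points lie above the 4 NP points, the closest being −0.82 in NP replicate 4 and −0.80 in P replicate 3, and the other pairs overlap.

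Hspa8, the constitutive cytosolic Hsp70, was the most abundant of the group and the steadiest of its abundant members. It had 218, 209, 254 and 155 FPKM in NP and 204, 124, 110.7 and 163 FPKM in P. The datasets overlapped, with 3 of the 4 NP libraries above all P libraries. Means were 209 ± 41.2 FPKM in NP and 150.4 ± 41.9 FPKM in P (SD, n = 4), a log2 fold change of −0.49 (SE 0.51, limma adjusted p = 0.704) which was 0.47 after median centring. Its residual SD of log2 values was 0.35, and only 1.35% of the 2003 genes with a mean above 50 FPKM had a smaller one, the median being 1.001. Over the 8 libraries it ranked at percentiles 94.8 to 98.2 of the genes tested. The gene lies at chr9:40800984-40805200, and copies at 5 other loci with at least 95% identity covered 87.9% of its transcript. Among 5638 genes with a mean above 10 FPKM, those most like Hspa8 over the 8 libraries were Psmc3ip (Pearson r = 0.972 on log2 values), Zfp939 (0.938) and 2210019I11Rik (0.937), which describes only these libraries and the scaling they share.

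The Hsp110 genes Hspa4 and Hsph1, whose products exchange nucleotide on Hsp70, had means more than 10-fold lower over the 8 libraries and far less steady. Hspa4 (chr11:53259814-53300457) had 4.70, 10.9, 15.3 and 14.5 FPKM in NP and 3.58, 3.78, 3.42 and 60.1 FPKM in P. The first 3 P libraries lay close together below every NP library, and P replicate 4 lay far above all others with 889 reads. The ratio of means, P over NP, was therefore 1.56 with all libraries and 0.317 without P replicate 4, and the log2 fold change was −0.38 (SE 0.95, limma adjusted p = 0.872) with it and −1.32 (SE 0.82, limma adjusted p = 0.616) without it. After median centring of all 8 libraries it was 0.58 and after quantile normalization 0.18.

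Hsph1 (chr5:149614287-149636376) showed the reverse in the same library. It had 5.87, 3.50, 17.6 and 28.3 FPKM in NP and 12.0, 19.3, 8.63 and 0.742 FPKM in P, where the last value rests on 14 reads. P replicate 4 was the lowest of all 8, and the remaining P values lay inside the NP range. Means were 13.8 ± 11.5 FPKM in NP and 10.2 ± 7.69 FPKM in P (SD, n = 4), with a log2 fold change of −0.48 (SE 0.96, limma adjusted p = 0.832) that became 0.26 without P replicate 4, 0.24 after quantile normalization and 0.47 after median centring. The Hspa4/Hsph1 ratio of FPKM was 0.298, 0.196 and 0.396 in P replicates 1 to 3 and 80.9 in P replicate 4, against 0.801, 3.11, 0.868 and 0.512 in NP. The log2 ratios did not differ between the datasets over all libraries (difference 0.10, exact permutation p = 1), and without P replicate 4 the difference was −1.57 (exact permutation p = 0.0571). No stretch with at least 95% identity was found elsewhere for either gene.

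P replicate 4 held extreme values for other members as well. It held the lowest FPKM of the 8 libraries for Hsp90ab1, Hsph1 and Hspa9 and the highest for Hsp90aa1, Hspa4 and Hspe1. The share of all genes with their lowest or highest FPKM in P replicate 4 was not computed, so these extremes have no background. This library also had the fewest genes above 0 (9139) and the lowest share of its summed FPKM in the 10 genes, 0.0660% against 0.0886 to 0.160% in the other libraries. The part of this library's depth and coverage in those values was not tested. The lowest and highest P libraries were more than 10-fold apart for 3 of the 10 genes (Hspa4, Hsph1 and Hspd1). The share over all genes was 25.2%, where a gene at 0 in any of the 4 P libraries was not counted as apart. All 10 genes were above 0 throughout, so both shares are not fully alike. The NP libraries were this far apart for 1 gene (Hspd1), and the share over all genes was not computed for NP.

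Stip1 (chr19:7020696-7040026), the co-chaperone that bridges Hsp70 and Hsp90, had nearly equal means in both datasets with a wide spread in each. It had 128, 185, 141 and 30.8 FPKM in NP and 249, 167, 39.8 and 34.4 FPKM in P. Low values occurred in NP replicate 4 and in P replicates 3 and 4, and the other 5 libraries exceeded 128 FPKM. Means were 121 ± 65.1 FPKM in NP and 123 ± 104 FPKM in P (SD, n = 4). The log2 fold change was −0.21 (SE 0.78, 95% interval −1.89 to 1.47, limma adjusted p = 0.914) and turned positive without NP replicate 2, P replicate 3 or P replicate 4 (0.08, 0.16 and 0.23), after median centring (0.75) and in voom (0.01). Stip1 ranked at percentile 93.7 of mean FPKM in NP and at percentile 94.4 in P.

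Among the mitochondrial chaperones, Hspa9 was abundant, whereas the chaperonin genes had low FPKM. Hspa9, on chromosome 18, had 26.6, 33.7, 62.6 and 62.8 FPKM in NP and 101.4, 58.7, 53.4 and 14.2 FPKM in P. P replicates 1 and 4 bracketed all other libraries. Means were 46.4 ± 19.0 FPKM in NP and 56.9 ± 35.7 FPKM in P (SD, n = 4), with a log2 fold change of 0.09 (SE 0.69, limma adjusted p = 0.958). It was negative without NP replicate 1 or 2 or P replicate 1 or 2 (−0.13, −0.03, −0.28 and −0.02), and 0.64 without P replicate 4. The ratio of the cytosolic to the mitochondrial Hsp70, Hspa8/Hspa9, was 8.18, 6.20, 4.06 and 2.46 in NP and 2.01, 2.11, 2.07 and 11.5 in P, with a difference of −0.58 on the log2 scale (exact permutation p = 0.4, adjusted p = 0.533). The first 3 P libraries lay close together below all NP libraries, and P replicate 4 lay above them. Without P replicate 4 the difference was −1.18 (exact permutation p = 0.0571). Leaving out any other single library gave differences of −0.89 to −0.33 (exact permutation p of 0.229 to 0.657).

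Hspd1 encodes the chaperonin Hsp60 and Hspe1 its co-chaperonin Hsp10, and they lie head to head on chromosome 1 (chr1:55077835-55088243 on the minus strand and chr1:55088132-55091307 on the plus strand), where the gene bounds overlap by 112 bases. Hspd1 had 0.949, 3.79, 8.68 and 0.598 FPKM in NP and 4.51, 0.236, 0.511 and 2.54 FPKM in P. Its values rested on 8, 13, 167 and 12 reads in NP and 56, 2, 6 and 18 reads in P, and the 2 reads of P replicate 2 carry a 95% Poisson interval of 0.242 to 7.22. High and low libraries occurred in both datasets, so that the log2 fold change of −0.50 (SE 0.86, limma adjusted p = 0.808) had a 95% interval of −2.34 to 1.35. It became 0.33 after quantile normalization and 0.46 after median centring, and it was −0.002 without NP replicate 3 and −0.88 without P replicate 1. NP replicates 3 and 4 had nearly equal recovered depth, and their 95% Poisson intervals for Hspd1 (143 to 194 and 6.20 to 21.0 reads) did not overlap. Hspe1 had 2.76, 1.57, 1.58 and 1.34 FPKM in NP and 2.60, 1.69, 2.14 and 3.04 FPKM in P, from 3 to 18 reads per library. All 4 P values lay above 3 of the NP values but only P replicate 4 lay above NP replicate 1, and the log2 fold change was 0.27 (SE 0.71, limma adjusted p = 0.880).

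In rank within a library, Hspe1 stood higher in P. Its FPKM lay at percentiles 48.2, 49.4, 53.0 and 59.1 of the genes tested in P and at percentiles 44.5, 35.5, 32.0 and 39.5 in NP. The datasets did not overlap in this measure, as for 1.81% of all genes with P above NP and 2.71% with NP above P. The ranks rest on the 3 to 18 reads given above, and fewer genes were above 0 in every P library than in every NP library, a difference whose part was not tested. Copies with at least 95% identity lie at 3 other loci for each of both genes and covered 92.2% of the Hspd1 and 69.3% of the Hspe1 transcript. No such copy was found for Hspa9. The part of these copies in the low FPKM of Hspd1 and Hspe1 was not tested. No difference of the Hspd1/Hspe1 ratio between datasets was detected (log2 difference −0.76, exact permutation p = 0.343, adjusted p = 0.533).

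Promoter windows of 3 members held the letters of the element that Hsf1 binds, and they are shown because Hsf1 and genes it is known to induce were measured side by side. The heat shock element consists of alternating GAA and TTC units, searched here as GAANNTTCNNGAA and TTCNNGAANNTTC on both strands in the window from 250 bases before to 50 bases after each start site (RefSeq, GRCm38.p6). Of the 10 genes, Hspa4, Hsph1, Stip1, Hspd1 and Hspe1 had a window in the table used, and 3 of these 5 (Hsph1, Hspd1 and Hspe1) held a match, as did 0.581% of 9640 tested genes with a window and 2 of 57 other chaperone genes (Dnajb6 and Chordc1). Hspd1 and Hspe1 share the same bases of their common promoter, chr1:55088056-55088084, read on the minus strand for Hspd1 and on the plus strand for Hspe1, with a second match overlapping the first by 8 of its bases. In Hsph1 the match lies downstream of the start site at chr5:149636280-149636308 on the minus strand. The matched units stand in capitals, 5′ to 3′:
Hspd1: gcggggccTTCCGGAAGGTTCtagaacgg
Hspe1: ccgttctaGAACCTTCCGGAAggccccgc
Hsph1: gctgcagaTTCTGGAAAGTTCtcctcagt
A match describes the letters only, and the 3 genes holding one ranked at very different levels, Hsph1 at 12.0 FPKM and Hspd1 and Hspe1 below 3 FPKM on average.

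In maturing oocytes the tail of many stored mRNAs is lengthened in the cytoplasm through a cytoplasmic polyadenylation element close to the polyadenylation signal, so the 3′ ends of the 10 transcripts were read from GRCm38. A signal AATAAA or ATTAAA in the last 50 bases was found in 8 of the 10, the last one being used, and TTTTAT or TTTTAAT in the 100 bases before it in 3 of these 8, beside 17.9% of 8917 genes with a signal. The element ended 26 bases before the signal in Hsp90ab1 (chr17:45567809-45567838, minus strand), 92 in Stip1 (chr19:7020812-7020841, minus strand) and 76 in Hspe1 (chr1:55091199-55091228, plus strand), where an earlier AATAAA directly follows the element. It stands in capitals within its neighbouring bases, 5′ to 3′:
Hsp90ab1: tttgtttgTTTTATtttgttctaaaattaa
Stip1: tggttattTTTTATttggggcagtgggtgc
Hspe1: tgcctcccTTTTATaataaacagatgatgc
The log2 fold changes of these 3 genes were −0.77, −0.21 and 0.27 as deposited, and none passed the test. Hsp90aa1 and Hsph1 had no signal in the window, and the other 5 had a signal but no element.

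Hsf1 (chr15:76477445-76500972), the regulator, was moderately abundant. It had 102.8, 53.4, 33.6 and 28.7 FPKM in NP and 7.07, 44.98, 24.7 and 52.2 FPKM in P. NP replicate 1 was the highest and P replicate 1 the lowest of all 8, and the remaining libraries overlapped. Means were 54.6 ± 33.8 FPKM in NP and 32.2 ± 20.4 FPKM in P (SD, n = 4), the log2 fold change being −0.88 (SE 0.73, limma adjusted p = 0.661), the most negative of the group. Without P replicate 1 it was −0.30, and after median centring 0.08. With 67 to 662 reads per library Hsf1 had no near-identical copy elsewhere, and its mean ranked at percentile 86.1 in NP and 81.8 in P.

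The wider chaperone network was read from 80 further genes in 7 classes, of which 67 were tested and 11 were at 0 in every library. None passed the adjusted p of 0.1 by limma or by voom. At an unadjusted p under 0.05 there were 6, all higher in NP (Hscb, Dnajb1, Dnajb12, Dnajb2, Hsbp1 and Afg3l2), where 9.47% of all genes were higher in NP at this limit and 0.476% higher in P. After quantile normalization the same 6 genes were under this limit higher in NP (4.04% of all genes), and Ahsa2 and Dnaja1 higher in P (2.55% of all genes). After median centring 3 were higher in NP (Hscb, Dnajb1 and Dnajb12, beside 1.24% of all genes) and 12 higher in P (among them Ahsa1, Dnajb4, Dnaja1 and Hsf5, beside 19.0% of all genes), while Dnajb2, Hsbp1 and Afg3l2 had an unadjusted limma p of 0.062, 0.098 and 0.182. Of the genes named here, Ahsa2 falls outside the rule and was chosen after its values were seen. No overlap with NP above P was seen for Dnajb1, Dnajb2, Dnajb12 and Afg3l2 (5.92% of all genes) and with P above NP for Dnaja1 (0.357% of all genes). The median log2 fold change of the 67 genes was −0.19, beside −0.43 for the 10 heat shock protein genes and −0.39 for all genes.

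**Figure D4:**
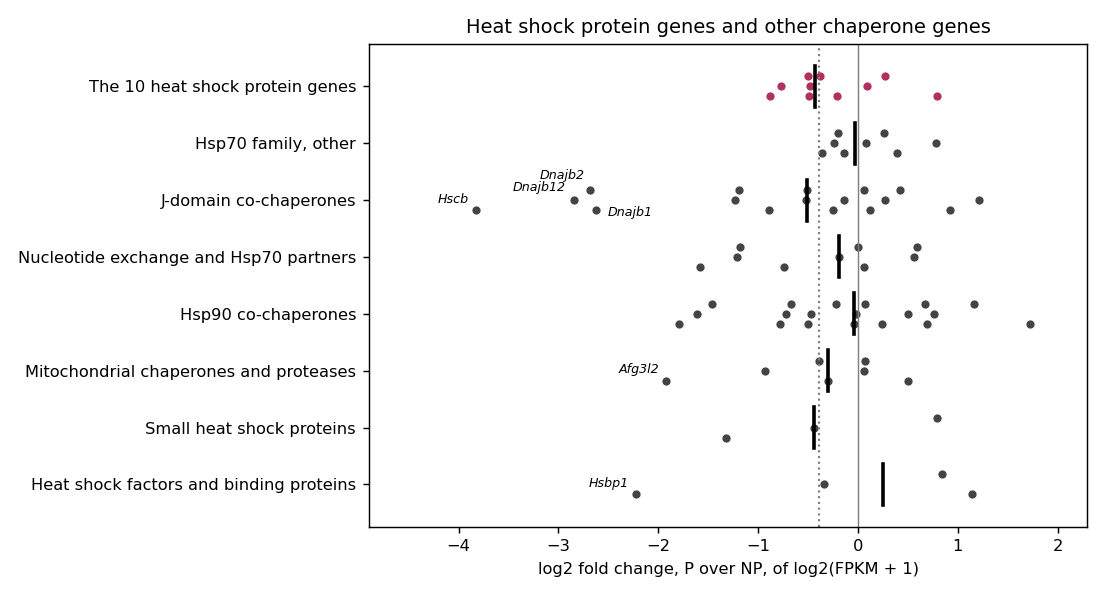
Log2 fold change of P over NP for the 10 heat shock protein genes (red) and for the tested genes of 7 chaperone classes (grey), with a bar at each median and a dotted line at the median of all genes tested, −0.39. The names mark the 6 genes with an unadjusted p under 0.05, all to the left of 0.

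J-domain proteins deliver clients to Hsp70 and drive its ATP hydrolysis, and 4 of the 6 genes belonged to the 17 tested of this class. Dnajb1, a cytosolic partner of Hspa8, had 1823, 2146, 588 and 939 FPKM in NP and 449, 328, 231 and 43.4 FPKM in P. The datasets did not overlap, and in NP the transcript exceeded that of Hspa8 in all 4 libraries. The mean was 5.23 times higher in NP (log2 fold change −2.62, SE 0.73, limma adjusted p = 0.376), and the adjusted p ranged from 0.108 in voom to 0.731 with quantile normalization. Dnajb2 and Dnajb12, both without overlap, had means of 14.5 and 17.6 FPKM in NP and 1.27 and 1.74 FPKM in P, and each was at 0 in P replicate 2. Dnaja1, another partner of Hspa8, was the gene with P above NP, at 4.68, 2.23, 6.48 and 4.85 FPKM in NP and 7.10, 10.0, 21.6 and 10.7 FPKM in P (log2 fold change 1.22, SE 0.77, limma adjusted p = 0.596). Dnajb4, among the most abundant of the class, had means of 47.5 ± 21.2 and 92.6 ± 51.9 FPKM (SD, n = 4) in NP and P with overlap. Hscb falls outside the rule for naming genes and was chosen after its values were seen.

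**Figure D5:**
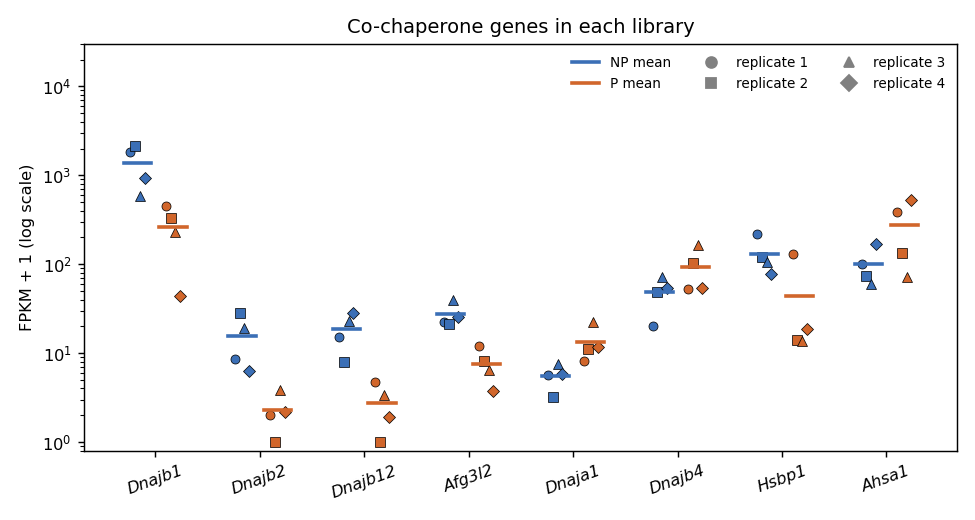
FPKM + 1 of 8 further chaperone genes in each library on a log axis, NP in blue and P in orange, with bars at the means of 4 libraries. Dnajb1, Dnajb2, Dnajb12 and Afg3l2 show every NP library above every P library, Dnaja1 shows the opposite order, and Dnajb4, Hsbp1 and Ahsa1 overlap.

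In the other classes the most abundant genes overlapped between the datasets. Ahsa1, which stimulates the ATPase of Hsp90, had means of 100.1 ± 49.3 FPKM in NP and 276 ± 211 FPKM in P (log2 fold change 1.16, SE 0.69, limma adjusted p = 0.569), and Nudc, an Hsp90 co-chaperone, 81.7 ± 60.4 and 138 ± 178 FPKM (log2 fold change 0.24, and −0.54 without P replicate 4). Trap1, the mitochondrial Hsp90, was more abundant than either cytosolic form in mean, at 215 ± 119 FPKM in NP and 238 ± 279 FPKM in P (log2 fold change −0.93, and 0.34 without P replicate 4). Dnlz, an escort of Hspa9, had 175 ± 143 and 370 ± 486 FPKM with 1086 FPKM in P replicate 4, and its log2 fold change was −0.30 with and −1.39 without that library. Afg3l2, a less abundant protease subunit of the inner mitochondrial membrane named for its lack of overlap, had 26.3 ± 8.68 and 6.61 ± 3.48 FPKM (log2 fold change −1.92, limma adjusted p = 0.416, and −0.96 after median centring). Of the partners of Hsp70, Stub1, a ubiquitin ligase, had 101 ± 72.5 and 174 ± 155 FPKM (log2 fold change 0.06) and Bag4 40.7 ± 14.3 and 73.7 ± 93.5 FPKM, with a log2 fold change within 0.01 of 0. Hsbp1, which binds Hsf1, had 129 ± 60.3 FPKM in NP and 42.8 ± 56.7 FPKM in P (log2 fold change −2.22, SE 0.76, limma adjusted p = 0.416), with P replicate 1 inside the NP range. The stress-inducible Hsp70 genes Hspa1a and Hspa1b stayed low, at 0 to 3.60 and 0.133 to 4.14 FPKM over the 8 libraries, far below Hspa8. Hspa2, Hspa12a, Hspb1, Hspb3 and Hsf5, named by the same rule, had means of 4.15, 11.1, 2.47, 9.57 and 18.6 FPKM in NP and 21.3, 8.90, 42.5, 0 and 70.5 FPKM in P, all overlapping. Several of these means rested mostly on a single library. In P, Hspb1 had 170.1 FPKM in replicate 1 and 0 in the others, and Hspa2 81.6 FPKM in replicate 3 and at most 3.47 in the others. Hsf5 had 207.6 FPKM in P replicate 2 against 13.3 to 43.7 in the other P libraries. Hspb3 was above 0 only in NP replicate 4.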

How the data were processed

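Per the submitters' notes, reads were trimmed with Trim Galore 0.4.1, checked with FastQC 0.11.5 and aligned by HISAT2 2.0.5 against GRCm38. The authors deposited FPKM values per gene and library, made in Seqmonk on a linear scale. The RNA had been rRNA-depleted, primed with oligo(dT) and random primers and amplified by a kit that does not mark strand, so values describe amplified cDNA and reads from the overlap of Hspd1 and Hspe1 cannot be assigned. The annotation and the handling of reads with several matches are not given. Both other deposited tables hold the authors' means, ratios and DESeq2 comparisons and were not used.

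Libraries were grouped by title, and the study describes 4 independent biological replicates. P and NP were compared by limma 3.58.1 (R 4.3.3, lmFit and trended eBayes, 2-sided). The values entered as log2(FPKM + 1), which understates changes of low genes. A gene was tested if NP or P averaged above 0.1 FPKM (14292 genes), and an adjusted p (Benjamini-Hochberg) under 0.1 was a call. Ratios within a library were compared by exact permutation over 70 assignments, or fewer where a library was left out. Reads were recovered for 13590 genes (87.2% of those above 0) as whole multiples of a step, within 0.01 of a step, with the annotated length for 6978 genes and a searched length for 6612 (5 of the 10 heat shock protein genes), though such a step could be a fragment or 1 of its reads. Poisson intervals cover counting error only, since amplified reads are not independent molecules. Copies were searched with blastn 2.17.0, and scripts were tested on simulated data. The genes and lists were chosen with earlier results of these data known. Named beside the 10 genes were the 2 most abundant genes of each class and those without overlap between datasets and a mean above 10 FPKM in the higher one. Other scalings, pseudocounts, filters, a replicate block and single libraries left out were tried.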

Additional observations from a re-analysis of the deposited data

Results flagged for a closer look

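A library was marked where its gap to the nearest of the other 3 exceeded Dixon's 95% critical share of the range of its dataset, over 64 sets of 4 libraries. This marked 11 sets, where chance marks about 1 in 20 if values follow a normal distribution. Most sets were FPKM on the linear scale, and some held several values at 0. The count of 11 can therefore not be judged against that rate. Among the 10 heat shock protein genes it marked Hspa4 in P replicate 4, at 60.1 FPKM beside 3.42 to 3.78 FPKM in the other P libraries. P replicate 4 was marked for the log2 Hspa4/Hsph1 ratio at 5.13 and for the log2 Hspa8/Hspa9 ratio at 3.44. The log2 Hsp90aa1/Hsp90ab1 ratio was marked in NP replicate 2 at −1.82, the lowest of the 8. Among the other chaperone genes named, Nudc was marked in P replicate 4 (404 FPKM), Hspa2 in P replicate 3 (81.6 FPKM), Hsf5 in P replicate 2 (208 FPKM), Hsbp1 in P replicate 1 (128 FPKM), Hspb1 in NP replicate 2 (8.96 FPKM) and in P replicate 1 (170.1 FPKM), and Hspb3 in NP replicate 4 (38.3 FPKM), the last being at 0 in the other 7 libraries.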

How the results depend on the processing

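None of the 10 genes passed an adjusted p of 0.1 under any alternative, the lowest being 0.193 for Hsp90aa1 with median centring. Of all values recomputed, 499 kept their direction and side of the threshold or stayed within the replicate spread, 21 turned their sign and 29 moved. The other 6, all of the Hsp90aa1/Hsp90ab1 ratio, no longer had an unadjusted exact p under 0.05. Signs turned with median centring for Hsp90ab1 (0.19), Hspa8 (0.47), Hspa4 (0.58), Hsph1 (0.47), Stip1 (0.75), Hspd1 (0.46) and Hsf1 (0.079), with quantile normalization for Hspa4 (0.18), Hsph1 (0.24) and Hspd1 (0.33), and for Stip1 (0.013) with voom on annotated or searched lengths, an alternative added after seeing the data. Leaving out single libraries gave log2 fold changes of −0.93 to 0.26 for Hsph1, −0.77 to 0.23 for Stip1 and −0.28 to 0.64 for Hspa9, differences of −1.57 to 0.83 for the Hspa4/Hsph1 ratio 0.93 to 1.97 for the Hsp90aa1/Hsp90ab1 ratio and −1.18 to −0.33 for the Hspa8/Hspa9 ratio, and 0.317 to 1.98 for the Hspa4 ratio of means and percentiles 49.2 to 77.3 for Hspa4 in P. The Hsp90 ratio difference with a pseudocount of 10 was 1.25 (exact permutation p = 0.0571). The Hspa4 ratio of medians was 0.290. With a mean filter of 1 FPKM, fewer genes were ranked and percentiles were 94.3 for Hspa8 in P, 52.1 for Hspa4 in NP, 26.5 and 25.4 for Hspd1 in NP and P, and 14.9 and 28.2 for Hspe1, whose percentile by medians in P was 52.1.

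The count of all genes with an adjusted p under 0.1, which was 3, became 5 with a pseudocount of 0.1 or a filter of 1 FPKM, 0 with a pseudocount of 10, no filter, quantile normalization or median centring, 20 without a trend, 108 with voom on annotated lengths, 189 with voom on annotated or searched lengths, and 0 to 5 without single libraries. At an unadjusted p under 0.05 it was 1422, and became 942 with quantile normalization, 2896 with median centring and 831 with voom on annotated lengths, where fewer genes were tested. Most of the 1422 (1354) were higher in NP, and with median centring 2719 of 2896 were higher in P. The cause of the other changes was not tested.

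Libraries with the same number deviated together at r = 0.139, 0.0518, 0.251 and 0.155 for numbers 1 to 4 (11374 genes), and libraries of unlike number at r between −0.135 and 0.136, so that number 2 did not pass 0.1. Both pools come from the same 4 gradients, but no source ties the numbers of NP and P, and the libraries were taken to share only a number. Each library correlated best with its own number except NP replicate 2, which correlated best with P replicate 1 (0.136). With the replicate block 1 gene had an adjusted p under 0.1, the 10 genes kept their fold changes with 0 calls, and the Hsp90aa1/Hsp90ab1 difference of 1.56 had an exact p of 0.125 over sign flips, the smallest that 4 pairs allow.

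Read numbers were lowest for Hspd1 (2 to 167) and Hspe1 (3 to 18).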
